A study of Mus musculus with 4 samples.

Results

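The genes described here encode the enzymes of cholesterol and fatty acid synthesis and the proteins that control them. They were measured in mouse C2C12 cells, an established myoblast line, in which quiescence can be imposed by removing anchorage. A list of 35 genes was matched by symbol, updated through Entrez IDs, to the probe sets of the array, and each gene was read from its probe set of highest mean signal. Of these, 34 genes were found among the 12393 named genes of the array: 17 enzymes of the sterol arm, 12 of the fatty acid arm and 5 of 6 regulators. Insig1 was matched to no probe set and was not analysed here. Acaca, the carboxylase that commits acetyl-CoA to fatty acid synthesis, lay under the limit for dim genes, a mean log2 signal of 2.18, with 1.39 and 1.58 on the Wnt3A arrays and 1.48 and 1.73 on the control arrays. The remaining 33 genes were tested.

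The study asked which transcriptional networks β-catenin serves in quiescent myogenic cells. Wnt3A cells were given purified Wnt3A, the ligand that stabilises β-catenin, at 50 ng/ml. The titles of the samples called control here do not name Wnt3A. All cells, in both groups, were grown in medium with 20% fetal calf serum and held for 48 hours in methyl cellulose suspension, where they enter the resting state G0. There were 2 Affymetrix arrays for Wnt3A and 2 for control. Their titles number them as biological replicates, but do not say whether these came from separately started cultures. A p-value here compares a difference with the variation among these arrays, as estimated with the help of all genes. It may not cover variation between separately started cultures. Values are signals on a log2 scale, a difference is Wnt3A minus control, and a log2 difference of 1 is a 2-fold change if the base of the deposited values is 2, as their range implies.

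Cholesterol is built from acetyl-CoA. The mevalonate steps yield farnesyl pyrophosphate, squalene synthase joins farnesyl units into squalene, and squalene is oxidised and cyclised to lanosterol, which is trimmed of methyl groups and rearranged to cholesterol. Fatty acids are built from the same precursor by fatty acid synthase and are then lengthened by elongases and desaturated by desaturases. Both arms are controlled by the sterol regulatory element-binding proteins (SREBPs), membrane-bound transcription factors that SCAP escorts out of the endoplasmic reticulum when sterols are low and that INSIG proteins hold back when sterols are high. SREBP-2 is known mainly for the sterol arm and SREBP-1c for the fatty acid arm. SREBPs act at sterol regulatory elements together with NF-Y, which binds the CCAAT box, and Sp1.

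The arrays had median signals between 4.15 and 4.22 and correlated pairwise at 0.936 to 0.978. All 8 myoblast markers were above the limit for dim genes, with a summed signal of 11.11 and 11.06 (log2) on the Wnt3A arrays and 10.58 and 11.05 on the control arrays. Wnt3A replicate 2 was the lowest of the 4 arrays in Myod1, Cdh15 and Des and the highest in Chrna1, Ncam1 and Cdh2, single markers being named after their values were seen. Myod1, the myogenic transcription factor, read 6.32 and 3.62 on the Wnt3A arrays and 6.84 and 7.11 on the control arrays. Cdh15, the muscle cadherin, read 5.69 and 4.04 on the Wnt3A arrays and 5.39 and 5.56 on the control arrays. Des, which encodes desmin, read 9.08 and 8.10 on the Wnt3A arrays and 8.73 and 8.92 on the control arrays. The cadherin gene Cdh2 read 7.25 and 8.09 on the Wnt3A arrays and 7.23 and 7.21 on the control arrays. Ncam1, an adhesion molecule, read 8.35 and 8.78 on the Wnt3A arrays and 7.71 and 8.30 on the control arrays. Chrna1, an acetylcholine receptor subunit, read 9.60 and 9.73 on the Wnt3A arrays and 8.75 and 9.70 on the control arrays. These markers thus moved in both directions on that array. Myf5, another myogenic factor, read 7.77 and 7.65 on the Wnt3A arrays and 6.57 and 5.98 on the control arrays, a difference of 1.43 without overlap. Of the adipocyte markers 8 were on the array and 5 were above that limit; Adipoq, which defines fat cells, was at 0.97 and 1.14 on the Wnt3A arrays and at most 1.50 on the control arrays, under it throughout. Of the 5 tested adipocyte markers 4 lay lower on both Wnt3A arrays than on both control arrays, with differences of -1.82 for Cebpa, -1.34 for Pparg, -1.32 for Fabp4 and -0.53 for Retn, and the median of the 5 was -1.32. The summed adipocyte marker signal was 6.66 and 5.67 (log2) on the Wnt3A arrays and 7.75 and 7.08 on the control arrays. Of the macrophage and leukocyte markers 3 of 7 were above the limit and Ptprc was not. Csf1r read 3.53 and 5.19 on the Wnt3A arrays and 3.26 and 3.39 on the control arrays, a difference of 1.03. Cd68 differed by 0.28 and Cd14 by -1.16, so these 3 markers moved in both directions, each without overlap. Of the endothelial and epithelial markers 2 of 8 were above the limit. The small-subunit ribosomal RNA probe sets averaged 10.46 and 9.40 on the Wnt3A arrays and 10.42 and 7.21 on the control arrays, so control replicate 2 stood apart in them.

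The sterol arm lay higher with Wnt3A and the fatty acid arm was split. Of 17 sterol enzymes 12 were higher with Wnt3A, against 47% of all 9294 genes tested, and their median difference was 0.31, against -0.02 over all genes. Of 11 fatty acid genes 6 were higher and 5 were lower (median difference 0.01); the lower ones were the stearoyl-CoA desaturase gene Scd1, the front-end desaturase genes Fads1 and Fads2 and the elongase genes Elovl5 and Elovl6. The regulators had a median of 0.11, with 4 of 5 higher. With the group as the only term in limma, no member passed an adjusted p of 0.05 over all genes. No other gene did either (0 of 9294, 0%), and 528 genes, 5.68% of those tested, had an unadjusted p under 0.05. Scaling to the hybridization controls raised all differences alike and moved the median of all genes from -0.02 to 0.30. With that shift 49 genes (0.527%) passed in limma, among them Msmo1 (adjusted p = 0.0249) and Cyp51 (adjusted p = 0.0498). Among the members the unadjusted level was met by Msmo1 and Cyp51 on the higher side, where 2.46% of all genes met it, and by Scd1 on the lower side, where 3.22% did.

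The arrays themselves were split cleanly for 20 of the 33 members, against 34.4% of all tested genes. In the sterol arm both Wnt3A arrays lay above both control arrays for 8 of 17 genes (14.7% of all genes) and below both for 3 (19.8% of all genes). In the fatty acid arm they lay above both for 2 of 11 genes and below both for 5. At least 2-fold apart without overlap were Msmo1 and Cyp51, higher with Wnt3A (1.54% of all genes), and Scd1 and Elovl6, lower with Wnt3A (2.09% of all genes), which makes 4 of 33 members against 3.63% of all genes. Averaged after centring each gene on its mean over the 4 arrays, the sterol arm stood at 0.07 and 0.27 on the Wnt3A arrays and at -0.26 and -0.08 on the control arrays. The fatty acid arm stood at -0.02 and -0.18 on the Wnt3A arrays and at -0.01 and 0.22 on the control arrays. The sterol arm's arrays did not overlap between groups, and of the fatty acid arm's, Wnt3A replicate 1 and control replicate 1 lay side by side. Because genes were chosen with earlier results of these arrays known, these counts and medians carry no test. Per array the sterol mean minus the fatty acid mean was 0.09 and 0.45 with Wnt3A and -0.24 and -0.30 in control, without overlap. The difference between the medians of the arms was 0.30. It was 0.15 with the mean of each gene's probe sets and 0.49 with the dimmer 50% of genes left out. Another quantity, the contrast of the arms' centred medians within each array, was 0.06 and 0.28 with Wnt3A and -0.21 and -0.35 in control. The SD between replicates of that contrast was 0.134, which is not an SD of the 0.30. The sterol median was 0.16 without Wnt3A replicate 2, 0.21 without control replicate 1 and 0.14 with the mean of each gene's probe sets, with 11, 11 and 10 of 17 genes higher; that of the fatty acid arm changed sign between settings (-0.18 without control replicate 1). Scaling to the hybridization controls moved all genes alike: the median of all genes was then 0.30 and that of the sterol arm 0.62, with 16 of 17 genes higher, while the difference between the arms stayed at 0.30.

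**Figure D1:**
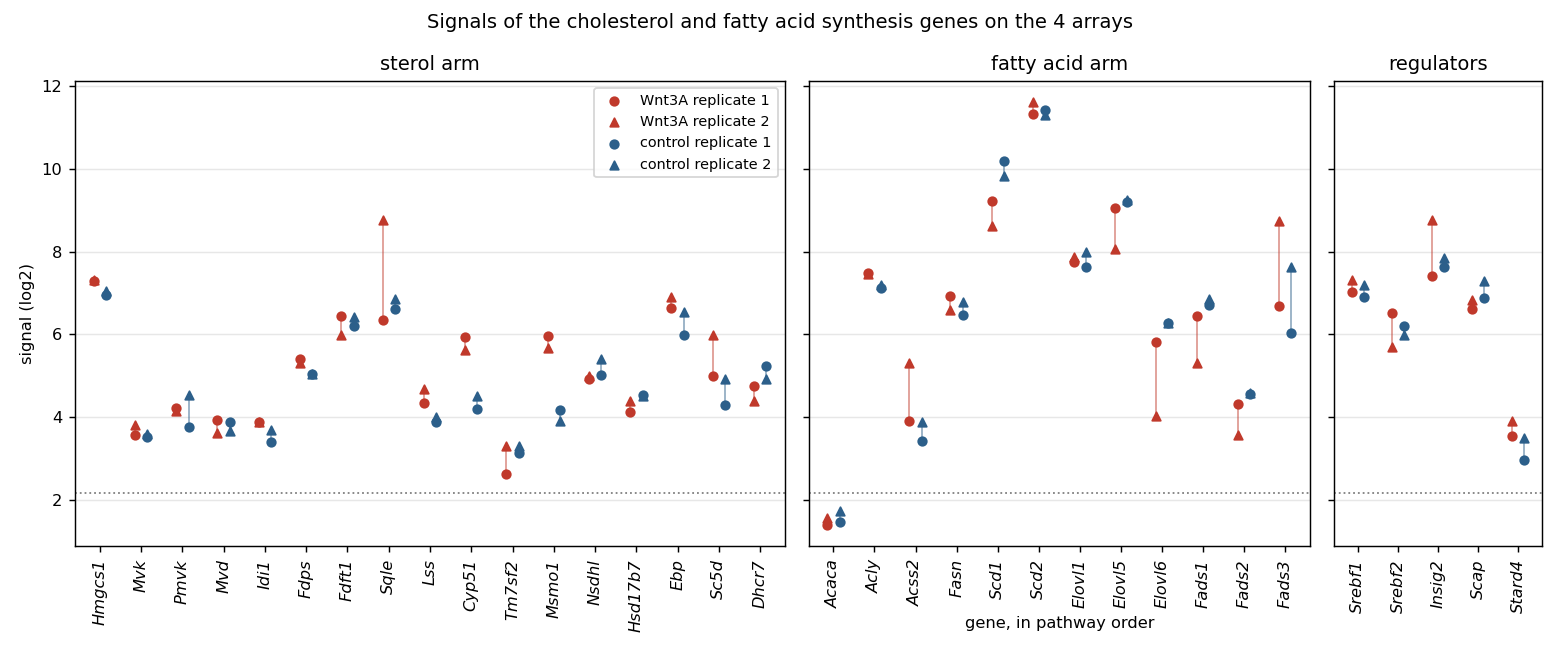
Log2 signal (vertical axis) of each gene with a probe set on the 4 arrays, in pathway order along the horizontal axis; red points are Wnt3A arrays and blue points control arrays, circles replicate 1 and triangles replicate 2, thin lines join the arrays of a group, and the dotted line is the limit for dim genes, 2.18. Msmo1 and Cyp51 show red points well above blue ones, Scd1 shows red points below blue ones, and in Sqle, Insig2, Elovl6 and Fads3 the red points lie far apart.

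The mevalonate steps differed little. Hmgcs1 encodes HMG-CoA synthase, which makes the precursor of mevalonate. It read 7.28 and 7.32 on the Wnt3A arrays and 6.94 and 7.04 on the control arrays, a difference of 0.31 (SE 0.19, 95% confidence interval -0.19 to 0.81). The groups did not overlap, and its other 3 probe sets differed by 0.44, 0.61 and 0.47, each with both Wnt3A arrays above both controls. Idi1, the isomerase that makes dimethylallyl pyrophosphate, read 3.90 and 3.89 on the Wnt3A arrays and 3.40 and 3.69 on the control arrays, a difference of 0.35 (SE 0.20). Fdps, the farnesyl pyrophosphate synthase, read 5.41 and 5.31 on the Wnt3A arrays and 5.06 and 5.05 on the control arrays, a difference of 0.31 (SE 0.21). Idi1 differed by 0.21 without control replicate 1. Neither gene's groups overlapped, but the second probe set of each, under the limit for dim genes, gave -0.07 and -0.03. The kinase genes Mvk and Pmvk and the decarboxylase gene Mvd, which act between mevalonate and isopentenyl pyrophosphate, differed by 0.13, 0.04 and 0.01, with overlapping groups. On the probe sets used, all 6 mevalonate genes were thus above 0, with a median of 0.22. The second probe set of Mvk, nearly as bright, gave -0.20, with both Wnt3A arrays below both controls. That of Mvd gave -0.05, with overlap. With the mean of each gene's probe sets, Mvk was at -0.035 and Mvd at -0.022. Mvk, Pmvk and Mvd each changed sign in at least 1 setting with an array left out. Across the 6 mevalonate genes the adjusted p-values in limma were 0.917 and above.

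The widest differences lay in the demethylation of lanosterol. Msmo1, also known as Sc4mol, encodes the methylsterol monooxygenase that oxidises the methyl groups at carbon 4 of the sterol ring. It read 5.96 and 5.67 on the Wnt3A arrays and 4.18 and 3.92 on the control arrays. The difference was 1.76 (SE 0.24, 95% confidence interval 1.13 to 2.39), or 3.40-fold, with an adjusted p of 0.332 in limma. After scaling to the hybridization controls, which raised all differences alike, the difference of Msmo1 was 2.08 (adjusted p = 0.0249 in limma). Cyp51, the cytochrome P450 that removes another methyl group of lanosterol in an earlier step, read 5.95 and 5.62 on the Wnt3A arrays and 4.19 and 4.52 on the control arrays. Its difference was 1.43 (SE 0.26, 95% confidence interval 0.76 to 2.09), or 2.69-fold, with an adjusted p of 0.482 in limma. In both genes every Wnt3A array lay more than 1 above every control array. A second probe set of Cyp51 gave 1.44 with 4.44 and 4.12 on the Wnt3A arrays against 2.999 and 2.69 on the control arrays, and the third, under the limit for dim genes, gave -0.09. The mean of its probe sets differed by 0.92, less than 2-fold. Among all 9294 differences those of Msmo1 and Cyp51 stood at percentiles 99.5 and 99.1.

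Other steps of the late pathway were mixed. Lss, the cyclase that makes lanosterol, read 4.34 and 4.68 on the Wnt3A arrays and 3.89 and 4.001 on the control arrays, a difference of 0.57 (SE 0.23, 95% confidence interval -0.02 to 1.16). Ebp, the sterol isomerase also known as emopamil binding protein, read 6.63 and 6.89 on the Wnt3A arrays and 5.99 and 6.54 on the control arrays, a difference of 0.50 (SE 0.28). Sc5d, the desaturase that acts after it, read 5.01 and 5.98 on the Wnt3A arrays and 4.30 and 4.91 on the control arrays, a difference of 0.89 (SE 0.43). On the probe sets used, the groups of these 3 genes did not overlap. In Sc5d and Ebp, though, the lower Wnt3A array was within 0.1 of the higher control array. Other, dimmer probe sets of Lss gave 0.42 and 0.27, with overlapping groups. The difference of Sc5d was 0.40 without Wnt3A replicate 2 and 1.38 without Wnt3A replicate 1, and that of Ebp ran between 0.22 and 0.77 when either control array was left out. Sqle, the squalene epoxidase, was at 6.36 and 8.76 on the Wnt3A arrays and 6.62 and 6.84 on the control arrays. Its difference of 0.83 (SE 0.81) came from Wnt3A replicate 2, and without that array it was -0.37.

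Against these, 5 sterol genes were lower with Wnt3A. Dhcr7, the reductase that turns 7-dehydrocholesterol into cholesterol, read 4.75 and 4.39 on the Wnt3A arrays and 5.24 and 4.92 on the control arrays, a difference of -0.52 (SE 0.26, 95% confidence interval -1.19 to 0.15). Both Wnt3A arrays lay below both controls, and without Wnt3A replicate 2 the difference was -0.34. Nsdhl and Hsd17b7 encode the dehydrogenase and the ketoreductase that complete removal of the methyl groups that Msmo1 oxidises. Both differed by -0.26, also without overlap on the probe sets used. The difference was -0.07 for Nsdhl without control replicate 2 and -0.13 for Hsd17b7 without Wnt3A replicate 1. A second probe set of Hsd17b7, nearly as bright, gave -0.40 with overlapping groups. Thus the 3 enzymes of that step shared a direction only after scaling to the hybridization controls. Tm7sf2, a sterol reductase of the ring double bond left by Cyp51, differed by -0.26 and Fdft1, squalene synthase, by -0.09, with overlapping groups. After that scaling, which moved the median of all genes to 0.30, Nsdhl, Hsd17b7, Tm7sf2 and Fdft1 were above 0 (0.06, 0.06, 0.06 and 0.22), below that median, and Dhcr7 remained below 0 at -0.20.

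**Figure D2:**
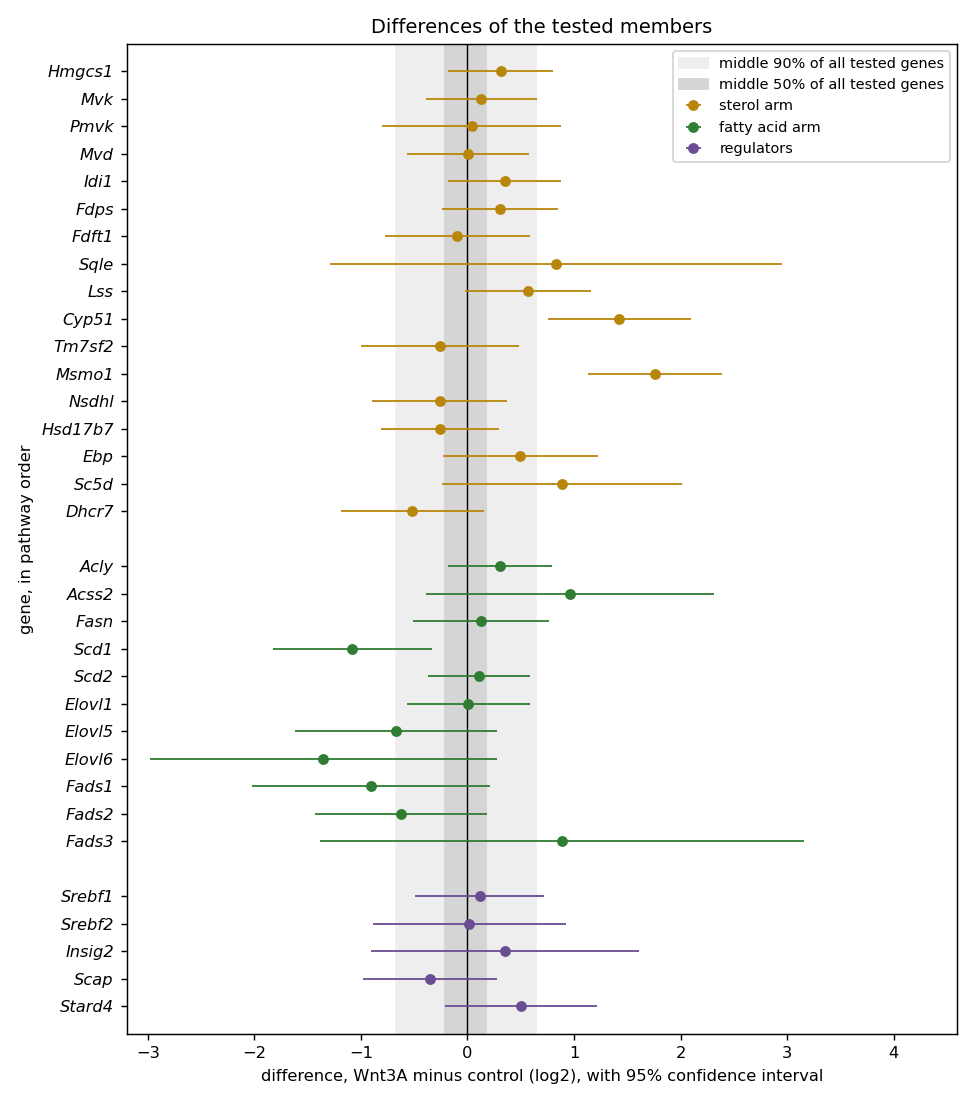
Difference in log2 signal, Wnt3A minus control (horizontal axis), of the 33 tested genes in pathway order, with the 95% confidence interval of the limma fit as bars and colours for the sterol arm, the fatty acid arm and the regulators; grey bands hold the middle 50% (-0.21 to 0.17) and the middle 90% (-0.67 to 0.64) of all tested genes. The intervals of Msmo1, Cyp51 and Scd1 do not reach 0.

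The promoters of the sterol genes had features that the choice of genes did not use, and the regulators shared some of them. RefSeq-derived windows of assembly GRCm38.p6, from 250 bases before to 50 after each annotated start, were matched for 28 of the 35 genes: 14 of the sterol arm, 9 of the fatty acid arm and 5 regulators including Insig1. Each window was searched on both strands for CCAAT (NF-Y), GGGCGG (Sp1), CACGTG (E-box), TCACNCCAC (a sterol regulatory element, SRE) and CTTTGAT (TCF/LEF, the partners of β-catenin). The CCAAT box was found in 14 of 14 sterol genes, 6 of 9 fatty acid genes and 4 of 5 regulators. Of all 27025 genes with a window 41.1% held it. At least 2 CCAAT boxes in a window were found in 9 of 14 sterol genes (64.3%) and 3 of 9 fatty acid genes (33.3%). They were found in 1 of 5 regulators (20%) and 13.3% of all genes. GGGCGG was found in 13 of 14 sterol genes, 5 of 9 fatty acid genes, 5 of 5 regulators and 38.2% of all genes. CACGTG was found in 3 of 14 sterol genes, 1 of 9 fatty acid genes, 2 of 5 regulators and 8.09% of all genes. The regulators had 10 windows for 5 genes, so a match per gene was easier to reach. TCACNCCAC was found in 1 of the 28 genes, Hmgcs1, and in 1.44% of all genes; CTTTGAT was found in none of these 28 genes and in 4.29% of all genes. In the members' windows, matches overlapped in Fasn (2 CCAAT boxes, by 2 bases) and in Elovl1 (CCAAT and GGGCGG, by 2 bases). A match describes letters in the window and not a bound site. Only these exact letters were searched, so elements that depart from them were not counted. A window without TCACNCCAC may thus still hold a sterol regulatory element. CCAAT boxes stood also in sterol genes that were lower with Wnt3A: Hsd17b7 had 3 and Nsdhl 4, and Msmo1 had 3 and Cyp51 1. The 3 sterol genes with CACGTG were Sc5d, which was higher with Wnt3A, and Hsd17b7 and Dhcr7, which were lower.

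The 180 bases before the start are given 5′ to 3′ on the gene's strand for 6 members chosen after their values were seen: Msmo1, Cyp51 and Elovl6 as those of widest difference with a window, Hmgcs1 for its SRE, and Sc5d and Elovl5 for an E-box beside CCAAT boxes. They are written with CCAAT boxes, E-boxes and the SRE in capitals; a box on the opposite strand reads ATTGG. The stretch of Msmo1 (chr8:64733579-64733758, minus strand) has 3 CCAAT boxes, and that of Cyp51 (chr5:4104698-4104877, minus strand) has 1 close to the start. Hmgcs1 (chr13:119690171-119690350, plus strand) has the SRE between 2 CCAAT boxes, and Sc5d (chr9:42264301-42264480, minus strand) has an E-box and a CCAAT box. Of the fatty acid genes that were lower with Wnt3A, Elovl5 (chr9:77917185-77917364, plus strand) has an E-box and 2 CCAAT boxes and Elovl6 (chr3:129532206-129532385, plus strand) has none of these motifs.
Msmo1: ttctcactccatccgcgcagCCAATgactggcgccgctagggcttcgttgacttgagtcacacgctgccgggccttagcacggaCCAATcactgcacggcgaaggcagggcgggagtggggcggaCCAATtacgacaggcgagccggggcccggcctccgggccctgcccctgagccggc
Cyp51: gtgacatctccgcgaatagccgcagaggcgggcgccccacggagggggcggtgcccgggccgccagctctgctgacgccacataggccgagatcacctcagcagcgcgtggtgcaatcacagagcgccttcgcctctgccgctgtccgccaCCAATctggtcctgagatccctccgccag
Hmgcs1: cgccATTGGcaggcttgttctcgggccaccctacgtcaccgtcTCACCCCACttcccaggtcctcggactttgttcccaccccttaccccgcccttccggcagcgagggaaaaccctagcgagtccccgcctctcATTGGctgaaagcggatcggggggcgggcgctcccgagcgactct
Sc5d: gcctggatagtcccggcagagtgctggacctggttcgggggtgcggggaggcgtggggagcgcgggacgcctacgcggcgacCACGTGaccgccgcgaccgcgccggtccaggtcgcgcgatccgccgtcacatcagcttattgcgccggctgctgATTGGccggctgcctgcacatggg
Elovl5: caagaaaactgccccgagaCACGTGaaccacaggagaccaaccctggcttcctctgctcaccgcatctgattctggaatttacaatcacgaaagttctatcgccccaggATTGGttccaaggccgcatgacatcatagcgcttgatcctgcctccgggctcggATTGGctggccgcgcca
Elovl6: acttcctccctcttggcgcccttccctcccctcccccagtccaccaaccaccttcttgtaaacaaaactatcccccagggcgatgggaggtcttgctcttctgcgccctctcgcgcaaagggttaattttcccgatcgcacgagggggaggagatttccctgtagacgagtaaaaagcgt

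**Figure D3:**
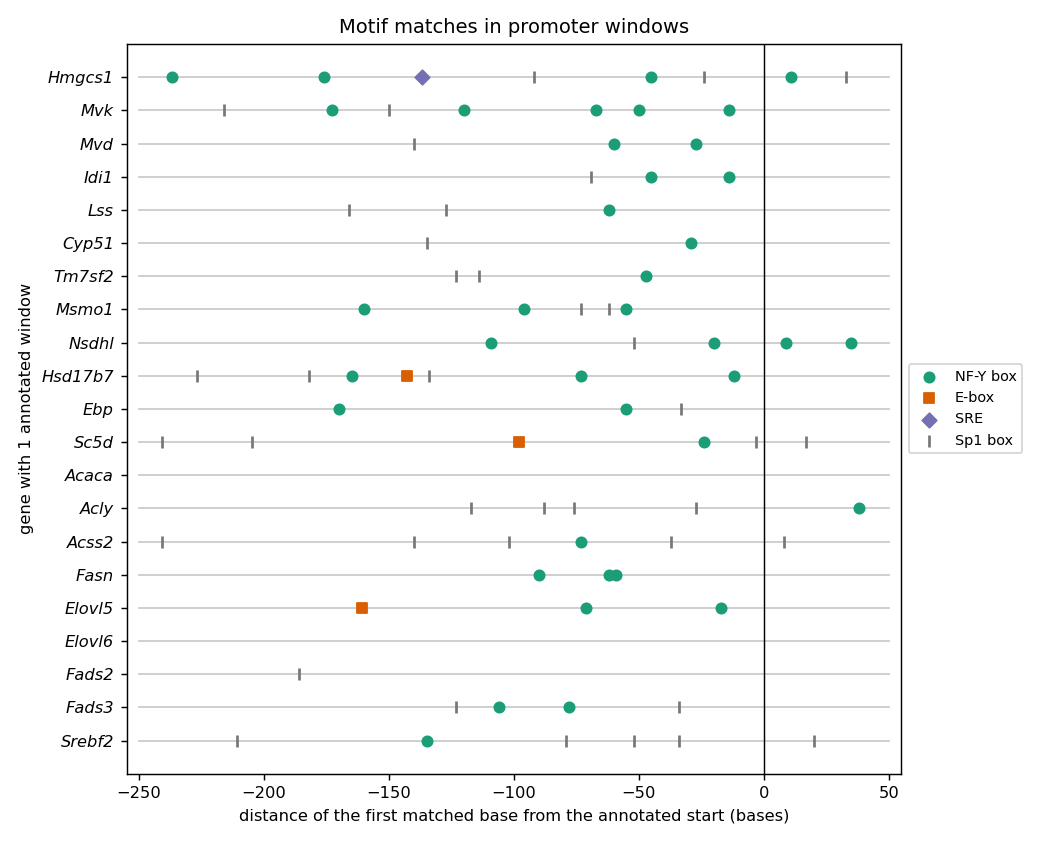
Positions of motif matches relative to the annotated start (horizontal axis, in bases; the vertical line is the start) in the 21 genes on the array with a single promoter window, in pathway order down the page; circles are NF-Y boxes, squares E-boxes, the diamond the SRE and ticks Sp1 boxes. All 12 sterol genes, from Hmgcs1 to Sc5d, carry at least 1 NF-Y box, and Acaca and Elovl6 carry no match.

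In the fatty acid arm the suppliers of acetyl-CoA and the synthase were not lower. Acly, which splits citrate into acetyl-CoA in the cytosol, read 7.48 and 7.45 on the Wnt3A arrays and 7.13 and 7.20 on the control arrays, a difference of 0.30 (SE 0.19). A second probe set of Acly, about as bright, gave 0.05, and the mean of its probe sets differed by 0.11. Acss2, which makes acetyl-CoA from acetate, read 3.92 and 5.31 on the Wnt3A arrays and 3.43 and 3.88 on the control arrays, a difference of 0.96 (SE 0.52) that was 0.26 without Wnt3A replicate 2. The groups of both genes did not overlap, by a narrow margin in Acss2. Fasn, fatty acid synthase, read 6.93 and 6.59 on the Wnt3A arrays and 6.48 and 6.78 on the control arrays, a difference of 0.13 (SE 0.24) with overlapping groups.

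The genes that modify finished fatty acids made up the lower part of the arm. Scd1, which turns stearate and palmitate into their monounsaturated forms, read 9.22 and 8.61 on the Wnt3A arrays and 10.18 and 9.82 on the control arrays. Its difference was -1.08 (SE 0.28, 95% confidence interval -1.83 to -0.34), with control 2.12-fold above Wnt3A and an adjusted p of 0.658 in limma. A second probe set gave -0.48, with overlapping groups, and the mean of its probe sets differed by -0.78, less than 2-fold. Scd2, its paralogue, read 11.33 and 11.61 on the Wnt3A arrays and 11.42 and 11.29 on the control arrays, a difference of 0.11 (SE 0.18, 95% confidence interval -0.37 to 0.59). The groups overlapped. Other, dimmer probe sets of Scd2 gave 0.17 and 0.87, also with overlap, and the mean of its probe sets differed by 0.38. The lower signal of Scd1 was thus not seen in Scd2, though the difference between the 2 genes was not tested. Probe sets of such close paralogues may share signal.

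Fads1 and Fads2 encode the desaturases that make polyunsaturated fatty acids from dietary precursors. Fads1 read 6.45 and 5.31 on the Wnt3A arrays and 6.72 and 6.85 on the control arrays, a difference of -0.90 (SE 0.43, 95% confidence interval -2.02 to 0.22). Fads2 read 4.32 and 3.59 on the Wnt3A arrays and 4.56 and 4.58 on the control arrays, a difference of -0.62 (SE 0.31). On these probe sets each Wnt3A array lay below the controls in both genes, and Wnt3A replicate 2 lay lowest. A second, dimmer probe set of Fads2 differed by -0.29 with overlapping groups. It read 2.99 and 3.48 on the Wnt3A arrays and 3.85 and 3.21 on the control arrays, so Wnt3A replicate 2 was not lowest there. Fads3, a relative that acts on sphingoid bases, was at 6.70 and 8.74 on the Wnt3A arrays and 6.03 and 7.63 on the control arrays. In it the arrays separated by replicate number, not by group, and its difference of 0.89 (SE 0.87) became -0.13 when Wnt3A replicate 2 was left out and 0.09 when control replicate 1 was.

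Among the elongases, Elovl6, which lengthens palmitate to stearate, read 5.82 and 4.03 on the Wnt3A arrays and 6.28 and 6.27 on the control arrays. Its difference was -1.35 (SE 0.62, 95% confidence interval -2.98 to 0.27), and its second probe set gave -1.05, also without overlap. Elovl5, which lengthens polyunsaturated fatty acids, read 9.05 and 8.07 on the Wnt3A arrays and 9.20 and 9.25 on the control arrays, a difference of -0.67 (SE 0.36), and -0.58 on its second probe set. The controls of both genes lay close together, and the Wnt3A arrays spread over 0.98 or more. Elovl1, the elongase of very long chains, differed by 0.01 (SE 0.22, 95% confidence interval -0.57 to 0.59).

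The size of this lower part rested on Wnt3A replicate 2. Without it the differences were -0.46 for Elovl6, -0.33 for Fads1, -0.25 for Fads2, -0.18 for Elovl5 and -0.78 for Scd1. Without Wnt3A replicate 1 they were -2.25, -1.48, -0.99, -1.16 and -1.39 for the same genes. All 5 thus stayed below 0 with any array left out, and did so under the other normalizations, filters and probe set rule that were run, except that Fads2 was not among the genes left when the dimmer 50% were left out. Of the 8 myoblast markers, Myod1, Cdh15 and Des were also lowest on that array, and Chrna1, Ncam1 and Cdh2 were highest on it. Its summed myoblast signal was 11.06, within the range of the other arrays. That sum adds unlogged signals and is dominated by bright markers such as Chrna1 (9.73 on that array). It therefore cannot show a fall in a dim marker such as Myod1 (3.62). The summed adipocyte marker signal was lowest on Wnt3A replicate 2, while Cebpa, Pparg, Fabp4 and Retn were lower on both Wnt3A arrays. The part of fewer cells of a type, and of less RNA per cell, in these differences was not tested, and in bulk RNA the 2 cannot be told apart. The higher values of Msmo1 and Cyp51 rested on no single array, with 1.62 to 1.91 and 1.26 to 1.59 when each array was left out in turn.

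**Figure D4:**
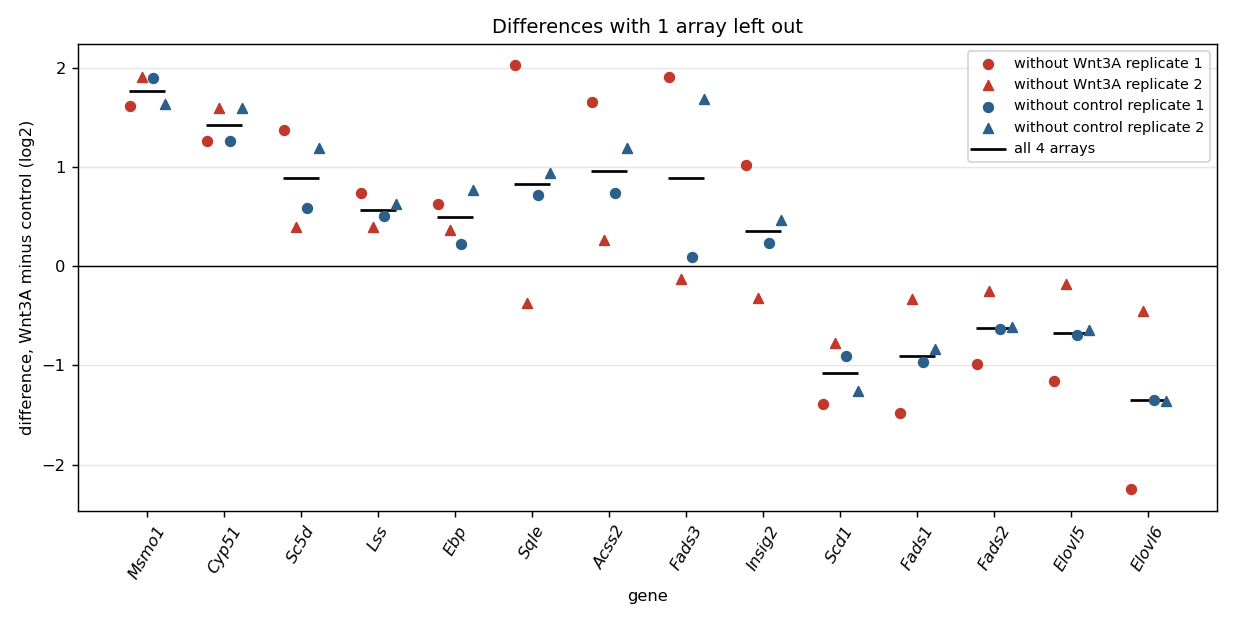
Difference in log2 signal, Wnt3A minus control (vertical axis), of 14 members with each array left out in turn (red for a Wnt3A array, blue for a control array, circles replicate 1, triangles replicate 2) and with all 4 arrays (black bars). Msmo1 and Cyp51 stay above 1, while Sqle, Fads3 and Insig2 are below 0 without Wnt3A replicate 2.

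The regulators differed less than the enzymes at the ends of the range. Srebf1, which encodes SREBP-1a and SREBP-1c, read 7.02 and 7.32 on the Wnt3A arrays and 6.91 and 7.20 on the control arrays, a difference of 0.11 (SE 0.23, 95% confidence interval -0.50 to 0.72). Srebf2, which encodes SREBP-2, read 6.52 and 5.69 on the Wnt3A arrays and 6.20 and 5.98 on the control arrays, a difference of 0.02 (SE 0.35, 95% confidence interval -0.89 to 0.93). Both genes had overlapping groups, and the intervals leave room for changes near 2-fold in Srebf2. Array signals report the messenger RNA and not the cleavage by which these proteins are activated.

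Scap, the escort of SREBPs, read 6.63 and 6.84 on the Wnt3A arrays and 6.89 and 7.28 on the control arrays, a difference of -0.35 (SE 0.24) in which the groups missed each other by 0.04 and which was -0.15 without control replicate 2. Insig2, which retains SCAP in the endoplasmic reticulum, was at 7.42 and 8.76 on the Wnt3A arrays and 7.63 and 7.86 on the control arrays. Its 3 probe sets differed by 0.35, 0.48 and 0.27, all with overlapping groups, and the used one by -0.32 without Wnt3A replicate 2. Stard4, a carrier of cholesterol in the cytosol, read 3.55 and 3.92 on the Wnt3A arrays and 2.97 and 3.49 on the control arrays, a difference of 0.50 (SE 0.27). Its groups were 0.06 apart, the difference was 0.24 without control replicate 1, and a second probe set gave 0.31 with overlap.

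No gene around the pathway, taken from fixed lists, passed limma's test with the group as its only term. Of 7 tested genes that supply acetyl-CoA and NADPH, 2 were higher and 5 were lower (median difference -0.11). Me1, the malic enzyme that yields cytosolic NADPH, read 8.29 and 8.98 on the Wnt3A arrays and 7.00 and 7.16 on the control arrays, a difference of 1.55 (SE 0.29, adjusted p = 0.488 in limma). Idh1 and Pgd, cytosolic dehydrogenases that also yield NADPH, differed by -1.59 (SE 0.41) and -0.88 (SE 0.28), with both Wnt3A arrays below both controls. NADPH-yielding genes thus lay on both sides.

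Of 13 tested genes of cholesterol uptake, trafficking and efflux, 6 were higher and 7 were lower (median difference -0.03). Ch25h, the hydroxylase that makes 25-hydroxycholesterol, an oxysterol that binds INSIG proteins, read 6.57 and 5.05 on the Wnt3A arrays and 2.77 and 3.17 on the control arrays, a difference of 2.84 (SE 0.55, adjusted p = 0.492 in limma). Lrp1, an endocytic receptor of lipoproteins, differed by -0.96 (SE 0.22) and Nr1h3, the oxysterol receptor LXRα, by 0.41 (SE 0.16). All 6 tested genes of the isoprenoid branch, which draws on farnesyl pyrophosphate, were above 0, with a median of 0.14 and overlapping groups in each; Fntb, a farnesyltransferase subunit, differed by 0.49, Rabggta by 0.38 and Dhdds by 0.15. Of 4 tested genes of SREBP processing 1 was higher, and Mbtps1, the protease that makes the initial cut in SREBPs, differed by -0.38 (SE 0.20), while Erlin1 differed by -0.01 and Pgrmc1 by 0.13.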

How the data were processed

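The deposited table holds 22690 probe sets on 4 arrays, and its values were read as log2 signals from their range, 0.50 to 13.23; the base and the authors' normalization were not given in the sources used here. Per the submitters' processing notes GCOS and PLIER were used, without versions. The protocol text mentions Wnt3A for all samples, so groups follow the titles. Nothing was normalized again. Platform annotation named 20380 probe sets with 1 symbol, updated through Entrez IDs to GRCm38.p6 symbols for 20351. Genes took the probe set of highest mean (12393 genes) and the dimmest 25% were left out (9294 tested). Tests used limma 3.58.1 in R 4.3.3 (lmFit, eBayes with intensity trend, group only, two-sided, Benjamini-Hochberg over all tested genes), with 4.68 degrees of freedom; the procedure was tested on simulated data. Members and lists were chosen with earlier results of these data known. All members are named, and up to 3 genes of lowest p in each companion list. The number of arrays limits the precision.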

Additional observations from a re-analysis of the deposited data

How the results depend on the processing

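With the replicate number as a block, 83 genes passed an adjusted p of 0.05 in limma (0.893%), among the members Msmo1 (difference 1.76, adjusted p = 0.0345) and among the genes around the pathway Me1 (1.55, adjusted p = 0.0459). Same-numbered arrays deviated together (correlation 0.478 over all tested genes), but the labels do not say what the number marks. Scaled to 18 hybridization control probe sets, 49 genes passed, among them Msmo1 (2.08, adjusted p = 0.0249) and Cyp51 (1.74, adjusted p = 0.0498). Under that scaling the sterol median was 0.62, that of the fatty acid arm 0.33, that of the regulators 0.43 and that of all genes 0.30, and Fdft1 (0.22), Tm7sf2 (0.060), Nsdhl (0.059) and Hsd17b7 (0.060) were above 0. With the dimmer 50% left out 1 gene passed and the sterol median was 0.50. Of the 22 members left 13 did not overlap, against 35.2% of all genes in that setting. With no filter the fatty acid median was -0.056, since Acaca entered it. Averaging the probe sets of each gene gave a sterol median of 0.14 and a fatty acid median of -0.0087. It left 2 members at least 2-fold apart without overlap, against 3.12% of all genes, Cyp51 being at 0.92 and Scd1 at -0.78. It also put Mvk (-0.035), Mvd (-0.022), Elovl1 (-0.0087) and Srebf2 (-0.068) below 0. The sterol median minus the fatty acid median was 0.15 then and 0.49 with the dimmer 50% left out. The cause of the other shifts was not tested. Quantile normalization, median centring and dropping the intensity trend gave 0 genes. With 1 array left out in turn, the lone array was assumed to vary like the other group. The sterol median then ran from 0.16 to 0.36, the fatty acid median from -0.18 to 0.049 and that of the regulators from -0.038 to 0.26. At least 2-fold apart without overlap were 2 to 11 members, against 3.38% to 10.3% of all genes. That rule is met more easily by 1 array against 2. Members whose direction changed then ran from -0.00070 to 0.26 (Mvk), -0.35 to 0.43 (Pmvk), -0.15 to 0.16 (Mvd), -0.33 to 0.14 (Fdft1), -0.37 to 2.03 (Sqle), -0.60 to 0.084 (Tm7sf2), -0.044 to 0.30 (Fasn), -0.031 to 0.25 (Scd2), -0.18 to 0.20 (Elovl1), -0.13 to 1.91 (Fads3), -0.038 to 0.26 (Srebf1), -0.40 to 0.44 (Srebf2) and -0.32 to 1.02 (Insig2). Under the alternatives run, 18 of the 33 members kept their direction throughout, 9 of the sterol arm and 7 of the fatty acid arm. The share of all genes that did so was not computed, so these counts have no background to be read against.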

Other observations

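Genes that store or burn fatty acids showed no common direction. Of 10 tested genes of triglyceride and phospholipid synthesis 5 were higher and 5 lower with Wnt3A (median difference -0.04). Dgat1, which completes triglycerides, read 5.97 and 6.31 on the Wnt3A arrays and 6.73 and 7.37 on the control arrays, a difference of -0.91 (SE 0.31, adjusted p = 0.821 in limma). Gpam, the acyltransferase of the initial step, differed by -0.50 (SE 0.19) and Ptdss1, a phosphatidylserine synthase, by -0.17; in all 3 both Wnt3A arrays lay below both controls. Of 9 tested genes of fatty acid oxidation 4 were higher and 5 were lower (median difference -0.01). Acadm, the medium-chain dehydrogenase, differed by -0.62 (SE 0.26) and Acadvl, that of very long chains, by -0.34 (SE 0.28). The receptor gene Ppard, counted among the 4 higher ones, differed by 0.26 (SE 0.16). Its control mean, 2.16, lay under the limit for dim genes, 2.18, and it passed that limit only through its Wnt3A arrays (mean 2.42). Of 9 tested genes of other elongation and fatty acid activation 5 were higher and 4 lower, and Tecr, the reductase of the elongation cycle, differed by -0.49, the synthetase gene Acsl4 by -0.46 and Elovl7 by -0.28.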
